A study of Mus musculus with 6 samples.

Results

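The keratins are the intermediate filament proteins of epithelial cells, and they were examined here in mammary tumours of mice with and without serglycin. Members were all genes with a symbol of Krt followed by a number, taken from probe sets that the platform annotation ties to exactly 1 gene symbol, with the probe set of the highest mean kept for each gene. This gave 49 keratin genes out of 22180 genes measured, from 50 probe sets. Each tumour has its own number in the sample titles and was taken to come from a different mouse. Each was hybridised to its own array and carried the PyMT transgene, an oncogene of polyoma virus that gives rise to mammary tumours. The groups were 3 PyMT+ SG-/- tumours, which lack serglycin (SG), and 3 PyMT+ SG+/- tumours, whose mice kept 1 intact allele, so that no tumour with both alleles intact was compared. The labels name neither the promoter that drives the transgene nor the strain or age of the mice. Serglycin is a proteoglycan that packs proteins into secretory granules.

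Keratins form filaments only as pairs of a type I and a type II protein, and the pair a cell makes follows its layer and tissue. In the mammary gland, Krt8 and Krt18 are the pair of the luminal cells that line ducts and alveoli, Krt7 and Krt19 are further keratins of simple epithelia, and Krt5, Krt14, Krt15 and Krt17 mark basal and myoepithelial cells. Krt1 and Krt10 belong to the differentiating layers of the epidermis, Krt4 and Krt13 to moist stratified epithelia such as that of the mouth, and most of the higher numbers to the root sheath and shaft of hair. The genes lie in a type I cluster and a type II cluster, and here 25 of the members were on chromosome 11 and 24 on chromosome 15 in the RefSeq annotation of GRCm38.p6. Krt18 is the type I gene that sits beside Krt8 in the type II cluster. By these roles 6 members were grouped as simple keratins, 3 as basal, 14 as suprabasal (skin and mucosa), 9 as hair root sheath and 13 as hair shaft, and 4 (Krt42, Krt88, Krt90 and Krt222) were left unplaced. Krt5 was not among the members, because its probe set also carries the symbol Krt6a, so the partner of Krt14 was not analysed here.

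Values are log2 signals per gene, in which a difference of 1 is a doubling of the signal, and all differences are SG-/- minus SG+/-. Where 3 values of a gene are given for a genotype, they follow the order of replicates 1, 2 and 3, a numbering that only names the tumours and pairs none. A gene was called dim where its mean lay under 6.09, the 40th percentile of all probe sets. Values of different genes come from different probes and were not ranked against each other. Over the arrays the median of all probe sets ran from 6.50 to 6.73. The 95th percentile of 1394 olfactory and vomeronasal receptor genes, which are taken to be silent in this tissue, ran from 6.42 in SG-/- replicate 1 to 8.04 in SG-/- replicate 3. The targeted gene, Srgn, stood at 6.76, 6.43 and 6.35 in SG+/- tumours and at 5.07, 5.04 and 4.89 in SG-/- tumours. The genotypes did not overlap, with a difference of -1.52 (standard error 0.15, limma adjusted p = 0.467).

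Most of the family gave no signal clearly above that of silent genes, and the clear signals came from simple and basal keratins and Krt79. Above the 95th percentile of the receptor genes in all 6 arrays lay 5 members, which were Krt8, Krt18, Krt19, Krt23 and Krt14. Krt7, Krt17 and Krt79 lay above it in 5 arrays, and the other 41 members in 3 or fewer. No member of the 9 root sheath or 13 hair shaft keratins was among the 8. Against the dim level, 19 members lay above it in every tumour and 15 in none. Of the markers given for these tumours, Krt8, Krt18 and Krt14 were thus present in every tumour, and Krt5 was not measured alone.

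**Figure D1:**
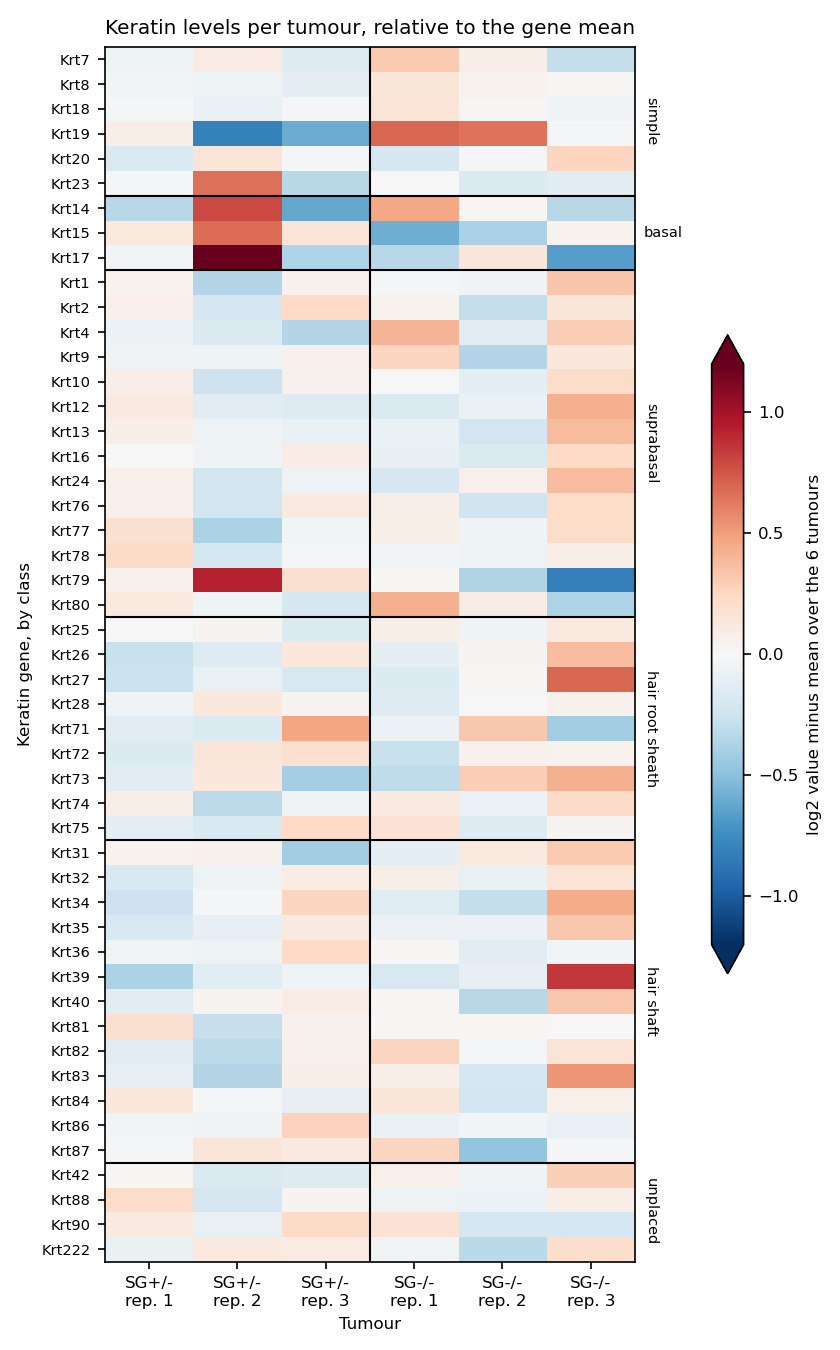
Each row is 1 of the 49 keratins, grouped by class, and each column 1 of the 6 tumours; the colour gives the log2 value minus the mean of that gene over the 6 tumours. Krt8 and Krt18 stay near 0 in all columns, Krt14, Krt15, Krt17, Krt23 and Krt79 are highest in SG+/- replicate 2, and many skin and hair keratins are highest in SG-/- replicate 3.

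The luminal pair Krt8 and Krt18 had the narrowest spans over the tumours of all 49 members, on the probe sets used. Krt8 (Entrez 16691, probe set 17322113) read 12.14, 12.11 and 12.06 in SG+/- tumours and 12.32, 12.21 and 12.18 in SG-/- tumours. Its SG-/- values all lay above its SG+/- values, but by a narrow margin, and 6.03% of all genes had genotypes that did not overlap (2.84% higher and 3.19% lower in SG-/-). Its difference was 0.13 (standard error 0.12, 95% interval from -0.14 to 0.41, limma adjusted p = 1.00). Krt18 (Entrez 16668, probe set 17315245) read 11.90, 11.85 and 11.90 in SG+/- tumours and 12.08, 11.93 and 11.88 in SG-/- tumours, and these values overlapped. Its difference was 0.08 (standard error 0.12, 95% interval from -0.20 to 0.37). Over the 6 tumours Krt8 spanned 0.25 and Krt18 0.23, and of the genes above the dim level 7.94% and 5.93% had a smaller span. A second Krt18 probe set, of lower mean, spanned 1.23. In bulk tissue, fewer cells of a type and less RNA per cell cannot be told apart.

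The start regions of Krt8, Krt18 and Krt79 are shown because only that of Krt8 matches the TATA box, a common promoter motif. They run from 250 bases before to 50 after the start in the RefSeq table of GRCm38.p6, 5′ to 3′ on the strand of the gene, at chr15:102004293-102004592 on the minus strand for Krt8, chr15:102027966-102028265 on the plus strand for Krt18 and chr15:101940275-101940574 on the minus strand for Krt79, a member described further on. Capitals mark matches, searched on either strand, to 4 motifs. The TATA box, at which the basal transcription machinery assembles, was searched as TATAAA. The E-box bound by Snail and Zeb repressors was searched as CACCTG. The AP-1 site of Fos and Jun proteins was searched as TGANTCA. The GC box bound by Sp1 was searched as GGGCGG.
Krt8: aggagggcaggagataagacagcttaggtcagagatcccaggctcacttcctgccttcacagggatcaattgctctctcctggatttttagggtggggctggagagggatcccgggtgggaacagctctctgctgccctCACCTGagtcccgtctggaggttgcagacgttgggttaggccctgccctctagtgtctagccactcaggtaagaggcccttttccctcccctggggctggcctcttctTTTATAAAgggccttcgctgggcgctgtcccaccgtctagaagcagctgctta
Krt18: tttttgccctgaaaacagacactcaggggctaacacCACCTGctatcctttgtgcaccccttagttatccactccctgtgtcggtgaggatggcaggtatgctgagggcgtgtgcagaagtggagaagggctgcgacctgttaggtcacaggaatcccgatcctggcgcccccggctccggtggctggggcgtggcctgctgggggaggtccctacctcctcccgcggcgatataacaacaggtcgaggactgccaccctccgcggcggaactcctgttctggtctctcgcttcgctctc
Krt79: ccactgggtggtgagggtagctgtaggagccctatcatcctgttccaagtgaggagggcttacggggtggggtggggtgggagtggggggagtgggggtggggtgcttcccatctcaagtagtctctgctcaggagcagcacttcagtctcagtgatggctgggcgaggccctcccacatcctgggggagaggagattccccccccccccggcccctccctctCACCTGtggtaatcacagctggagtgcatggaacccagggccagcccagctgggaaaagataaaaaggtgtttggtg
Krt8 holds the TATA box, which matches on both strands with overlapping letters, and all 3 regions hold an E-box. The table gave 35 start regions for 34 of the 49 keratins. TATAAA was found in 18 of the 35 (51.4%), against 13.6% of all 32851 start regions in the table. The E-box was found in 14 (40%), against 20.2% of all. The GC box was found in 2 (5.71%), against 35.7% of all, and the AP-1 letters in 2 (5.71%), both of them start regions of Krt13, against 7.81% of all. A match is a description of the letters and was not tied to any measurement here.

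Of the simple keratins, Krt19 differed most between genotypes. Krt19 (Entrez 16669), the small type I keratin that lacks most of the tail domain, read 9.46, 8.57 and 8.79 in SG+/- tumours and 10.07, 10.03 and 9.37 in SG-/- tumours. SG-/- replicates 1 and 2 stood above every SG+/- tumour, while SG-/- replicate 3 lay just under SG+/- replicate 1, so the genotypes overlapped. The means were 8.94 ± 0.46 and 9.83 ± 0.39 (SD, n = 3 each). The SG-/- mean was 0.89 higher (1.85-fold, standard error 0.29, 95% interval from 0.21 to 1.56). Krt19 had the smallest unadjusted limma p of the family, 0.0176, and did not pass over all genes (limma adjusted p = 1.00).

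Other luminal genes were set beside Krt19. Foxa1, a pioneer factor of hormone-responsive luminal cells, read 9.80 and 9.90 in SG-/- replicates 1 and 2, 7.86 in SG-/- replicate 3 and 8.07, 8.16 and 8.65 in SG+/- tumours. Esr1, the oestrogen receptor gene, read 8.70 and 8.59 in SG-/- replicates 1 and 2, 7.72 in SG-/- replicate 3 and 7.92, 7.79 and 8.03 in SG+/- tumours. The tumours in which both were high were the same 2 in which Krt19 was above 10. Epcam, the adhesion molecule of epithelial cells, ran only from 12.09 to 12.24 over all 6 tumours. Of the 15 luminal marker genes, 7 were higher and 8 lower in SG-/- tumours, and 0 had an unadjusted p under 0.05, against 2.11% of all genes. Their mean level per tumour ran from 10.29 to 10.43 in SG+/- tumours and from 10.18 to 10.57 in SG-/-. Their part in the Krt19 values was not tested.

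The remaining simple keratins did not separate the genotypes. Krt7, found in ducts and many glands, read 8.19, 8.34 and 8.09 in SG+/- tumours and 8.56, 8.32 and 7.95 in SG-/- tumours, with a difference of 0.07 (standard error 0.18). SG-/- tumours thus held both its highest and its lowest value. Krt23, a type I keratin of simple epithelia, read 8.97, 9.66 and 8.66 in SG+/- tumours and 8.99, 8.84 and 8.86 in SG-/- tumours. All tumours but SG+/- replicate 2 lay close together, and the difference was -0.20 (standard error 0.25). Krt20, a keratin of the gut lining, stayed under the dim level in every tumour, between 5.16 and 5.63. Over the 6 simple keratins the median difference was 0.08, against -0.01 over all genes.

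**Figure D2:**
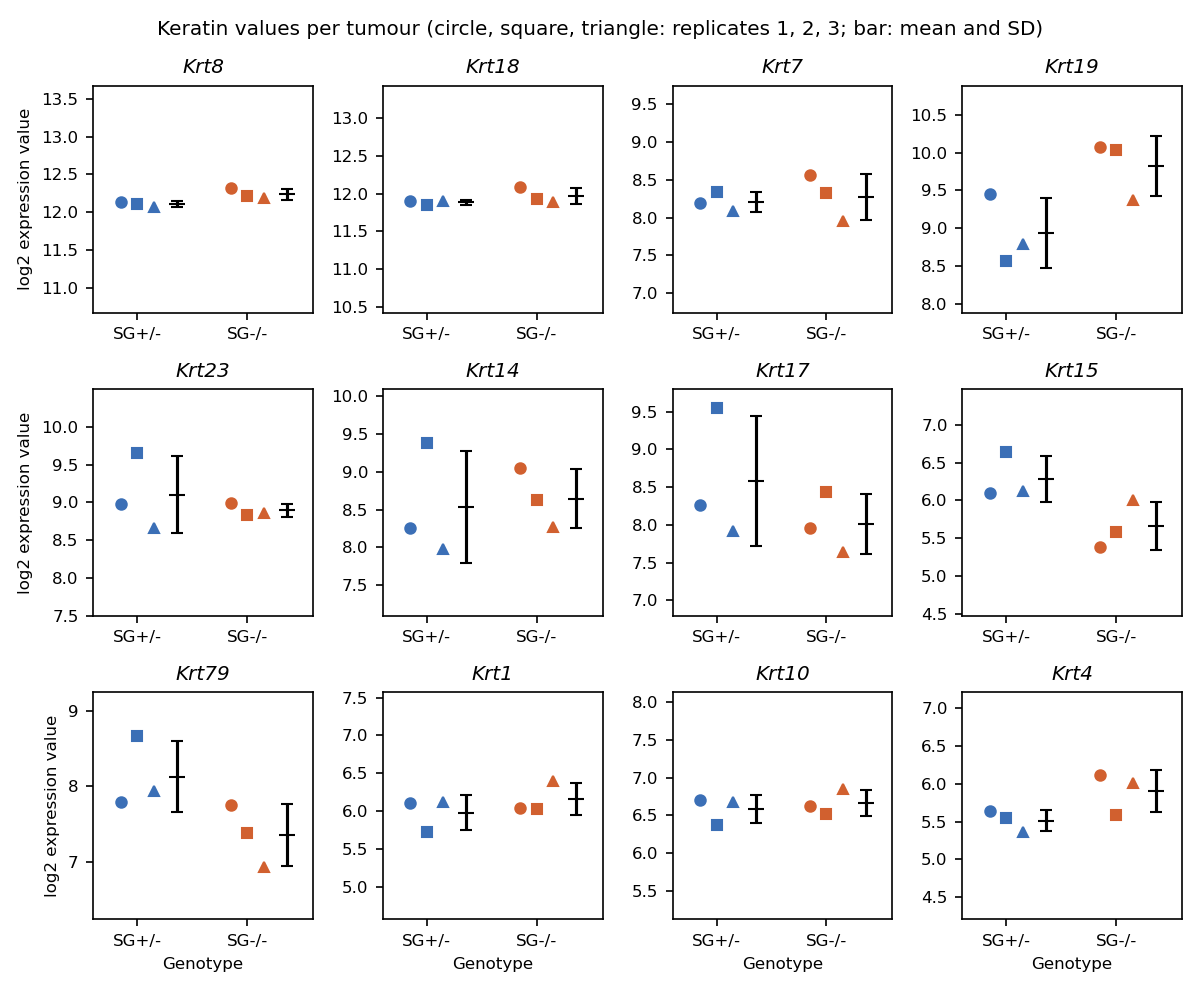
Points are log2 expression values of 12 keratins in single tumours, SG+/- in blue and SG-/- in orange, with the mean and SD of the 3 tumours beside them; every panel spans 3 log2 units on its vertical axis. Krt8 and Krt18 form flat rows, Krt19 is above 10 in SG-/- replicates 1 and 2 only, and SG+/- replicate 2 (the blue square) is the highest point for Krt14, Krt15, Krt17, Krt23 and Krt79.

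Krt14 and Krt17 had wide spans over the tumours, and their genotypes overlapped. Krt14 (Entrez 16664), the type I partner of Krt5, read 8.26, 9.38 and 7.98 in SG+/- tumours and 9.05, 8.62 and 8.26 in SG-/- tumours. The SG+/- tumours spanned all of the SG-/- values. The means differed by 0.11 (standard error 0.38, 95% interval from -0.80 to 1.01). Krt17 (Entrez 16667), a keratin of basal cells and of stressed epithelium, read 8.26, 9.55 and 7.92 in SG+/- tumours and 7.96, 8.44 and 7.64 in SG-/- tumours. Its span of 1.91 was the widest of the 49 members, and its difference of -0.57 (standard error 0.43) came to -0.08 without SG+/- replicate 2.

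Krt15 was the basal keratin whose genotypes did not overlap. Krt15 (Entrez 16665), which marks basal cells with stem cell features in skin, read 6.09, 6.64 and 6.13 in SG+/- tumours and 5.38, 5.58 and 6.01 in SG-/- tumours. SG-/- replicate 3 came close to the lowest SG+/- tumour. The means differed by -0.63 (1.54-fold, standard error 0.22, 95% interval from -1.15 to -0.10). In limma the unadjusted p was 0.0257 and the adjusted p was 1.00. Its mean over the tumours lay under the dim level, and it was above the level of the brightest receptor genes in 0 of 6 arrays. All 3 measured basal keratins were highest in SG+/- replicate 2. Their median, relative to the SG+/- mean, was 0.84 in that tumour and between -0.62 and -0.14 in the other 5.

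Myoepithelial markers did not follow the basal keratins from tumour to tumour. Of 8 such genes, 7 were highest in SG-/- replicate 2 and 0 were lowest there. Acta2, the smooth muscle actin of contractile myoepithelial cells, read 12.40 in that tumour and between 10.59 and 11.73 in the others. Trp63, a transcription factor of basal cells, read 8.05 there and between 7.27 and 7.73 in the others. Cdh3, the P-cadherin gene, was the member highest in SG+/- replicate 2, at 7.56, and its genotypes did not overlap, with a difference of -0.64 (standard error 0.23). Its limma p was 0.0294 unadjusted and 1.00 adjusted. Tagln, which encodes transgelin of smooth muscle, differed by 0.86 (standard error 0.41). The mean level of the 8 genes ran from 7.92 to 8.52 in SG+/- tumours and from 7.91 to 9.43 in SG-/- tumours. Acta2, Tagln and Myh11 are also made by vascular muscle and fibroblasts, and their part in the keratin values was not tested.

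Among the keratins of skin and mucosa, Krt79 stood apart. Krt79 (Entrez 223917), a type II keratin of the sebaceous duct and hair canal, read 7.79, 8.66 and 7.93 in SG+/- tumours and 7.75, 7.38 and 6.92 in SG-/- tumours. The genotypes did not overlap, although SG-/- replicate 1 lay just under SG+/- replicate 1. The means differed by -0.77 (1.71-fold, standard error 0.29, 95% interval from -1.47 to -0.08). In limma the unadjusted p was 0.0334 and the adjusted p was 1.00. Without SG+/- replicate 2, which was highest for Krt79 as for the basal keratins, the difference was -0.51.

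The defining keratins of epidermis and oral mucosa lay under the 95th percentile of the receptor genes in at least 4 of 6 arrays. Krt1 read 6.11, 5.72 and 6.12 in SG+/- tumours and 6.04, 6.03 and 6.40 in SG-/- tumours, and its partner Krt10 read 6.71, 6.38, 6.68, 6.63, 6.51 and 6.85 in the same order. Both were lowest in SG+/- replicate 2 and highest in SG-/- replicate 3. Krt4 read 5.64, 5.54 and 5.36 in SG+/- tumours and 6.12, 5.59 and 6.01 in SG-/- tumours, with a difference of 0.39 (standard error 0.18). SG-/- replicates 1 and 3 stood above all other tumours, and the unadjusted limma p was 0.062. Its partner Krt13 read 5.65, 5.52 and 5.49 in SG+/- tumours and 5.50, 5.35 and 5.96 in SG-/- tumours, with a difference of 0.05. Over the 14 suprabasal members the median difference was 0.06. Of 16 genes of the cornified envelope, the tough shell of dead skin cells, 0 had an unadjusted p under 0.05, against 2.11% of all genes. Lor, which encodes the main envelope protein loricrin, ran from 6.38 to 6.77. Tgm1, the transglutaminase that cross-links the envelope, and Sprr1a, which encodes a small proline-rich protein of it, differed by 0.33 (standard error 0.18) and 0.48 (standard error 0.37).

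Hair keratins gave little signal in either genotype. In the 9 root sheath keratins the differences ran from -0.11 (Krt72) to 0.36 (Krt27), with a median of 0.09. In the 13 shaft keratins they ran from -0.16 (Krt87) to 0.37 (Krt39), with a median of 0.02. Krt39 and Krt27 were highest in SG-/- replicate 3, at 7.21 and 6.51, against at most 6.31 and 5.83 in the other tumours. Tchh, which encodes trichohyalin of the root sheath, ran from 3.60 to 4.26. Hair keratins are close relatives of each other, and whether their probes separate them was not tested.

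SG-/- replicate 3 was the highest tumour for 23 of the 49 keratins (46.9%), for 900 of the 1394 receptor genes (64.6%) and for 26.7% of all genes. Of the 26 keratins with a mean under the dim level, 15 were highest there. Its mean receptor level was 5.86, against 4.57 to 5.62 in the other arrays. The part of this array-wide level in the high values of skin and hair keratins was not tested tumour by tumour. A fit with the mean receptor level as a covariate gave a median difference over all keratins of 0.056. Without SG-/- replicate 3 that median was -0.0095, against 0.05 with all tumours and no covariate.

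Over the family, 0 of 49 keratins passed at an adjusted p of 0.05 in limma, where 0% of all genes passed. At an unadjusted p under 0.05 there were 3 members (6.12%), Krt19 higher and Krt15 and Krt79 lower, against 2.11% of all genes, with 1.43% higher and 0.685% lower. The genotypes did not overlap in 3 members (6.12%), Krt8 higher and Krt15 and Krt79 lower, against 6.03% of all genes, so this share was close to the background. After quantile normalization was applied again these shares were 14.3% (7 of 49) and 8.03%. In all, 32 members were higher and 17 lower in SG-/- tumours, and 46.3% of all genes were higher. The median difference over all keratins was 0.05, and it was -0.0095 without SG-/- replicate 3. In 43 members the 95% interval of the difference lay within 1 on either side of 0, so a doubling of the signal lay outside it. The other 6, which were Krt14, Krt15, Krt17, Krt19, Krt39 and Krt79, also had a span over the tumours of 1 or more. Among the 43 were all 9 root sheath, 12 of the 13 hair shaft, 13 of the 14 suprabasal and all 4 unplaced keratins. Their signal was not clearly above that of silent genes, so a narrow interval says little of their transcripts. Without SG+/- replicate 2 the count at an unadjusted p under 0.05 was 0 of 49, against 368 of all 22180 genes. Without SG-/- replicate 2 it was 1 of 49 (Krt4), against 451 of all 22180 genes. Of the 6 fits that leave out 1 tumour, Krt19 had an unadjusted p under 0.05 in 2, without SG+/- replicate 1 or SG-/- replicate 3, and Krt15 and Krt79 in 3 each.

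**Figure D3:**
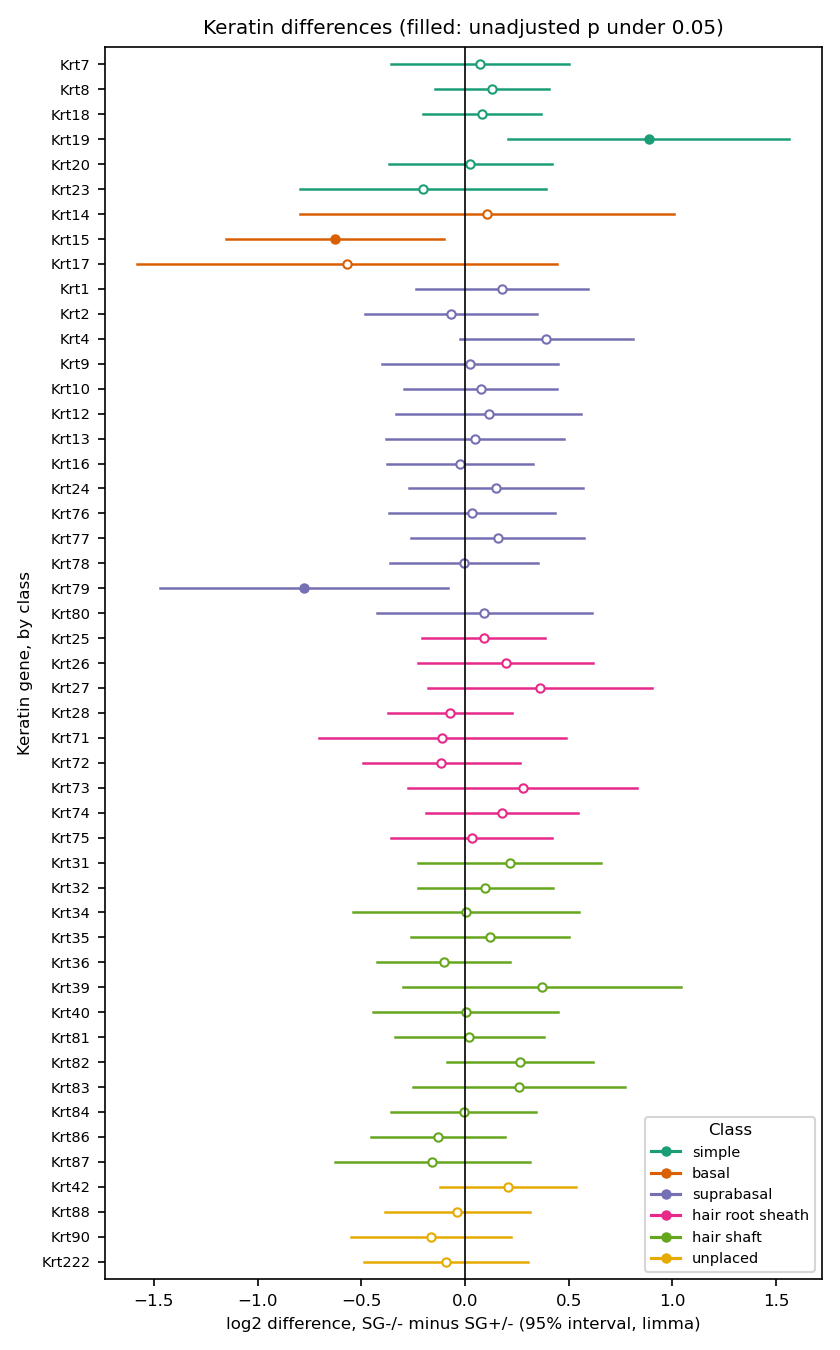
Points are the SG-/- minus SG+/- differences of the 49 keratins on the log2 scale with 95% intervals from limma, coloured by class, and filled where the unadjusted p is under 0.05. Krt19 (0.89), Krt15 (-0.63) and Krt79 (-0.77) are filled, and the other 46 intervals include 0.

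The pairing of type I and type II keratins was followed over the 6 tumours for 4 pairs. Krt1 and Krt10 had a Pearson correlation of 0.957 (exact two-sided permutation p = 0.00556, adjusted over the 4 pairs 0.0222) and a Spearman correlation of 0.943 (exact permutation p = 0.0167, adjusted 0.0667). With SG+/- replicate 2 and SG-/- replicate 3 left out, the tumours farthest from the median of Krt1, r was 0.868. Krt1 lay above the 95th percentile of the receptor genes in 0 of 6 arrays and Krt10 in 2. The mean of the receptor genes was 5.86 in SG-/- replicate 3, where both keratins were highest, and 5.62 in SG+/- replicate 2, where both were lowest, and its part in the correlation was not tested. Krt8 and Krt18 had r = 0.847 (exact permutation p = 0.0806, adjusted 0.161) and rho = 0.600 (exact permutation p = 0.242, adjusted 0.483), and r = 0.837 without the 2 tumours farthest from the median of Krt8. Krt7 and Krt19 had r = 0.424 (exact permutation p = 0.411, adjusted 0.411) and rho = 0.371 (exact permutation p = 0.497, adjusted 0.497), and Krt4 and Krt13 had r = 0.472 (exact permutation p = 0.397, adjusted 0.411) and rho = 0.429 (exact permutation p = 0.419, adjusted 0.497). Without the 2 farthest tumours r was 0.218 for Krt7 and Krt19 and 0.234 for Krt4 and Krt13.

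**Figure D4:**
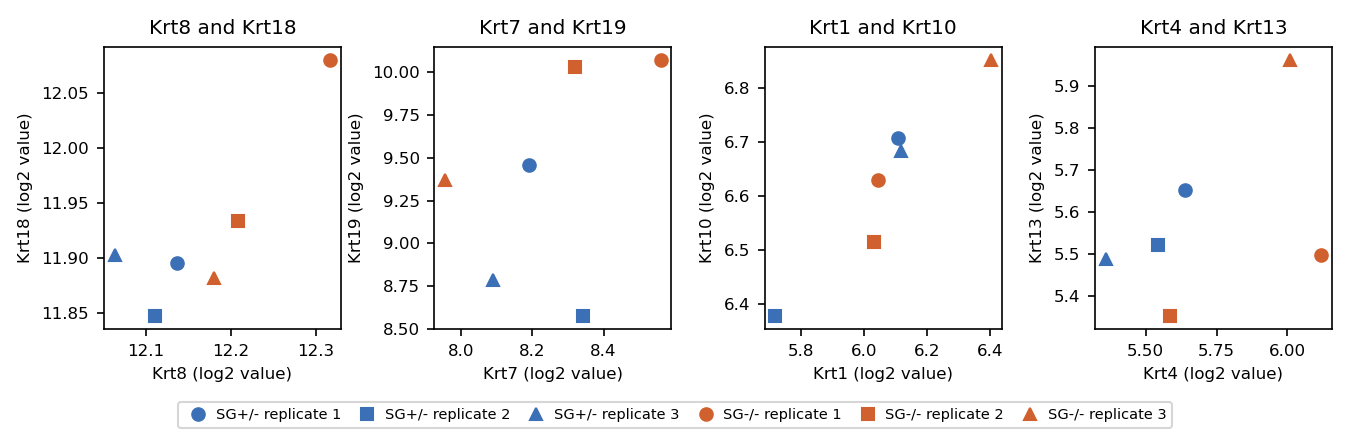
Each panel plots the log2 value of a type II keratin (horizontal) against that of a type I keratin (vertical) in the 6 tumours, with colour for genotype and shape for replicate, and axes scaled to each gene. Krt1 and Krt10 fall near a line (r = 0.957), SG-/- replicate 1 is the highest point for both Krt8 and Krt18, and r is 0.424 for Krt7 and Krt19 and 0.472 for Krt4 and Krt13.

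Keratin filaments end at desmosomes and are tied to them and to other filaments by plakin and plakophilin proteins. Of 15 measured genes of these partners, 5 were higher and 10 lower in SG-/- tumours. Their median difference was -0.05, with 0 at an unadjusted p under 0.05, against 2.11% of all genes. Dsp, which encodes desmoplakin, the protein that binds keratin to the desmosome, read 9.54, 10.28 and 10.47 in SG+/- tumours and 10.15, 10.20 and 10.05 in SG-/- tumours. Pkp3, which encodes plakophilin 3, differed by 0.12 (standard error 0.12) and Dsc2, which encodes desmocollin 2, by -0.19 (standard error 0.17). SG-/- replicate 3 was the lowest tumour for 11 of the 15. Pkp1, which encodes plakophilin 1 of stratified epithelia and was picked after its values were seen, was highest in SG+/- replicate 2, at 9.07 against 7.36 to 8.12 in the others, as were the basal keratins.

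**Figure D5:**
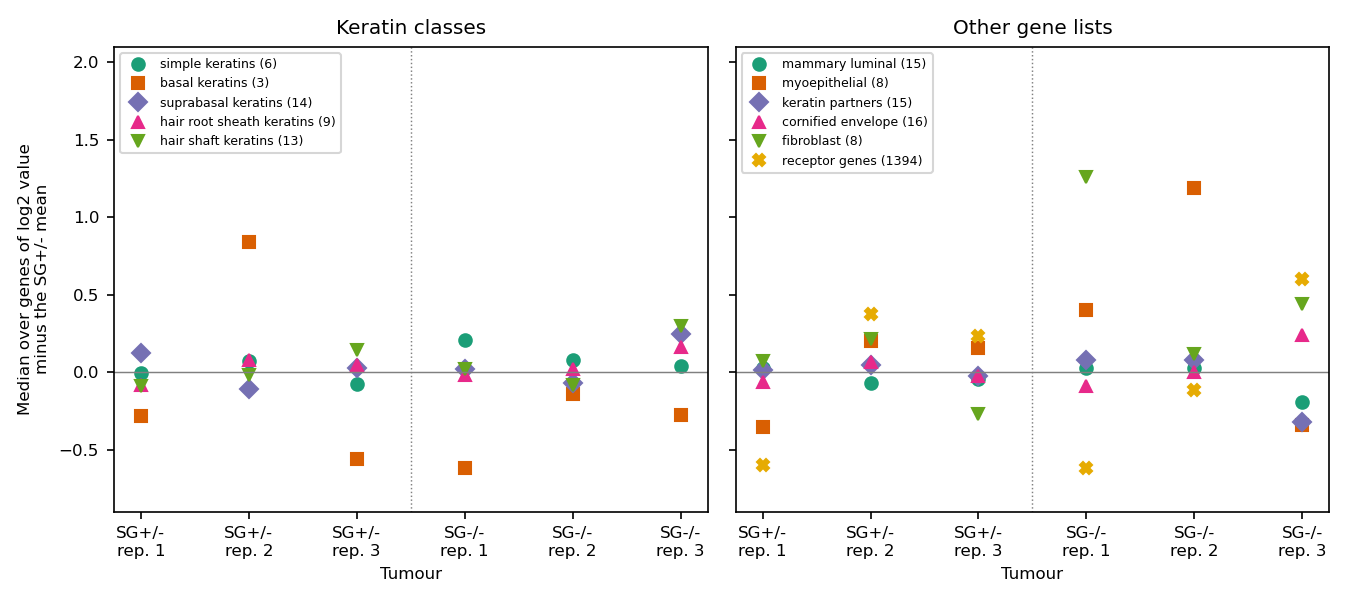
Points give, for each tumour, the median over the genes of a class or list of the log2 value minus the SG+/- mean, with keratin classes on the left, other lists on the right, and the number of genes in brackets. The basal keratins peak at 0.84 in SG+/- replicate 2, the myoepithelial list peaks at 1.19 in SG-/- replicate 2, and the receptor genes reach 0.60 in SG-/- replicate 3.

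Other tissue in the samples was described by its markers. Of 11 salivary acinar genes, 7 were higher and 4 lower in SG-/- tumours, and their mean level ran from 7.49 to 8.46 in SG+/- tumours and from 7.88 to 9.77 in SG-/- tumours. Bpifa2, the parotid secretory protein gene, read 13.54 and 13.64 in SG-/- replicates 1 and 3, 7.26 in SG-/- replicate 2 and between 5.98 and 6.47 in SG+/- tumours. Klk1, which encodes a kallikrein of salivary gland, differed by 4.45 (standard error 0.82), and read 9.02, 10.40 and 6.74 in SG-/- tumours, so it was highest where Bpifa2 was lowest among them. Dcpp2, another gene of the list, chosen after its values were seen, differed by -2.54 (standard error 0.96) with no overlap, and Aqp5, a water channel gene chosen likewise, by -0.21 (standard error 0.14) with no overlap. Krt4, a mucosal keratin, was also highest in SG-/- replicates 1 and 3. With the mean level of the salivary genes as a covariate the Krt4 difference was 0.18 and the Krt19 difference 1.25. That mean level was itself highest in SG-/- replicates 1 and 3, so these fits over 6 arrays cannot fully separate it from genotype. Krt4 lay above the 95th percentile of the receptor genes in 0 of 6 arrays. All 8 fibroblast genes had a higher mean in SG-/- tumours, where 46.3% of all genes were higher. Their mean level ran from 9.14 to 9.59 in SG+/- tumours and from 9.57 to 10.64 in SG-/- tumours. All 7 leukocyte genes had a higher mean too, with levels from 7.36 to 7.57 and from 7.73 to 8.13. Examples were the collagen gene Col1a1 (0.38, standard error 0.39), the fibroblast genes Fap (0.59, standard error 0.16) and Postn (0.71, standard error 0.24), and the leukocyte genes Ptprc (0.42, standard error 0.18), Laptm5 (0.52, standard error 0.16) and Cd3e (0.44, standard error 0.18). SG-/- replicate 1 was the highest tumour for all 8 fibroblast genes and for 6 of the 7 leukocyte genes. The fibroblast mean level of SG-/- replicate 2, 9.57, lay within the SG+/- range. In limma, 0 genes of either list had an adjusted p under 0.05. The part of salivary RNA in the keratin values was examined only by the covariate fits. That of fibroblast and leukocyte RNA was not tested.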

How the data were processed

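RNA from snap-frozen mammary tumours was measured on Affymetrix whole-transcript arrays. The authors deposited 1 log2 value per probe set and tumour. RMA (robust multi-array average), Affymetrix Expression Console and limma are listed in the submitters' processing notes, with no version. The sample titles number the tumour tissues and say no more of the replicates. The limma p-values set the genotype difference against the spread among tumours of the same genotype, moderated over all genes. The deposited arrays still differed in spread, with an interquartile range of all probe sets from 2.56 to 3.15. No value was missing and no column was left out.

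Of 33793 probe sets, 23521 carried 1 symbol, 1814 several and 8458 none in the platform table. Genotypes were compared over 22180 genes by a 2-sided moderated test (limma 3.58.1, lmFit and eBayes, R 4.3.3), and p-values were adjusted by Benjamini-Hochberg across those genes at 0.05. Correlations used exact permutation in SciPy 1.17.1 under Python 3.11.15, and plots matplotlib 3.10.9. The fit was tested on simulated data. Precision is limited by having 3 arrays for each genotype.

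The members and gene lists were chosen with earlier results of these data known. Values in every tumour are given for 11 measured keratins fixed by name (Krt8, Krt18, Krt7, Krt19, Krt14, Krt15, Krt17, Krt1, Krt10, Krt4 and Krt13) and for members above the dim level in any tumour with an unadjusted p under 0.05, a difference of at least 1 or a span of at least 2, which added Krt79. Krt23 was added after its values were seen. Of other lists, the rule names the gene written first and the 2 with the smallest p, and Trp63, Myh11, Pkp1, Dcpp2, Aqp5 and keratins at the ends of a range were chosen after their values were seen. Alternatives were to leave out dim genes, normalize again, centre on brighter genes, use eBayes with trend and robust settings, weight arrays, average probe sets, add the receptor or salivary mean as a covariate and leave out each tumour.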

Additional observations from a re-analysis of the deposited data

How the results depend on the processing

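The number of keratins past an adjusted p of 0.05 was 0 under each of the 14 alternatives, and the smallest adjusted p of a keratin ran from 0.173 with limma array weights to 1.00. The count of keratins at an unadjusted p under 0.05 ran from 0 to 3 of 49 when single tumours were left out. Over all 22180 genes it ran from 327 without SG-/- replicate 1 to 1200 without SG-/- replicate 3, with 2 keratins in each of these fits. With array weights it was 4 of 49 keratins, Krt222 being added, against 2569 of all 22180 genes. The keratin share was then under that of all genes. With the receptor mean as a covariate it was 4 of 49, Krt27 being added, against 1038 of all 22180 genes. The count whose genotypes do not overlap was 7 after normalizing again (14.3%, against 8.03% of all genes). It ran from 6 to 11 when single tumours were left out, where fewer values per group make a gap easier. The keratin share lay above that of all genes in some of these fits and under it in others. Without SG-/- replicate 2 it was 22.4% (11 of 49), against 13.5% of all genes. Without SG-/- replicate 3 it was 12.2% (6 of 49), against 21.6% of all genes. With array weights the median difference was -0.044 over all keratins and -0.0052 over basal keratins. With dim genes left out, 1 root sheath keratin remained (Krt73), at 0.28. Leaving out single tumours, the median ran from -0.0095 to 0.14 for all, from -0.72 to -0.08 for basal, from 0.06 to 0.14 for simple, from -0.04 to 0.16 for suprabasal, from 0.06 to 0.14 for root sheath and from -0.0095 to 0.17 for shaft keratins. Small differences changed sign, and the cause was not tested. Krt10 was -0.080 and Krt13 -0.14 with array weights, Krt13 -0.13 and Krt14 -0.10 with the salivary covariate, and leaving out single tumours gave -0.030 to 0.15 for Krt10, -0.13 to 0.18 for Krt13, -0.17 to 0.53 for Krt14 and -0.070 to 0.23 for Krt7. In every alternative in which they were fitted, Krt19 stayed higher and Krt15 and Krt79 lower. Leaving out single tumours gave 0.70 to 1.15, -0.80 to -0.45 and -0.98 to -0.51. The genotypes of Krt15 and Krt79 did not overlap, so leaving out a tumour could not change their sign. All 3 genes were singled out by their unadjusted p in these same data, so a stable direction adds no separate evidence. Signal near that of silent genes limits what can be said of skin and hair keratins. An unadjusted p under 0.05 was lost by Krt79 with the salivary covariate and by Krt15 when centred on brighter genes. It was lost by Krt19 without SG+/- replicate 2 or 3 or SG-/- replicate 1 or 2, by Krt15 without SG+/- replicate 2 or SG-/- replicate 1 or 2, and by Krt79 without SG+/- replicate 2 or SG-/- replicate 2 or 3. No paired analysis was possible because the labels give no replicate numbers shared between genotypes.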

Other observations

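Krt18 had a second probe set, 17322125, which disagreed with the first in spread. It read 10.32, 10.38 and 9.55 in SG+/- and 10.42, 10.55 and 9.32 in SG-/- replicates 1 to 3, with the third tumour of each genotype low, and a span of 1.23, against 0.23 in the probe set used. Its difference was 0.01, so both probe sets gave a small one.

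Keratins named with a letter, which fall outside the rule, were measured by 4 genes. Krt6a and Krt6b, keratins of wounded and fast-growing epithelium, differed by 0.02 (standard error 0.28) and 0.22 (standard error 0.25), and Krt33b, a hair keratin, by 0.04 (standard error 0.16). The 51 keratin-associated protein genes, which harden the hair shaft, had a median difference of 0.01, and 36 of them were highest in SG-/- replicate 3. Msx2, a homeobox gene of the hair matrix, differed by 0.35 (standard error 0.20) and Dlx3, another homeobox gene, by 0.11 (standard error 0.15). Of 8 hair follicle genes, 0 had an unadjusted limma p under 0.05, against 2.11% of all genes. Skeletal muscle genes, such as Ckm, the muscle creatine kinase gene, had 2 of 6 higher in SG-/- tumours and 0 at that p. The myosin gene Myh4 differed by -0.72 (standard error 0.58) and the myoglobin gene Mb by 0.16 (standard error 0.20).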
